A study of Mus musculus with 20 samples.

Results

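The 10 genes described here encode the machinery that decides, in the G1 phase of the cell cycle, whether a cell goes on to replicate its DNA. They are the 3 D cyclins Ccnd1, Ccnd2 and Ccnd3, their catalytic partners Cdk4 and Cdk6, the CDK inhibitors Cdkn1a, Cdkn1b, Cdkn2c and Cdkn2d, and the substrate Rb1. They were chosen by gene name for this role, and all 10 of the 56239 gene identifiers in the count table were found and passed the filter on low counts. The cells were B3, an established line of mouse pre-B cells, in which IKZF1 (Ikaros), a zinc finger transcription factor of lymphocytes, was fused to ERt2, the part of the oestrogen receptor that responds to 4-hydroxytamoxifen (4-OHT). The construct was brought in by retroviral transduction and was carried by all cells, the untreated 0 h cells included. Nuclear entry of the fusion protein was induced with 500 nM 4-OHT, and chromatin-associated RNA was collected before treatment and 0.5, 1, 2, 6, 12, 15, 18, 21 and 24 h after it, with 2 libraries at each time, 20 in all. No library of 4-OHT-treated cells without the construct was used here, so the effects of IKZF1, of 4-OHT itself and of time in culture cannot be told apart. The labels do not say whether the 2 libraries of a time came from separate cultures, so p-values measure the spread between these libraries, which may be technical. The doubt is greatest at 0 h, the base of every contrast, since the descriptions of its 2 libraries differ from each other only in an ending and may mark repeat libraries of 1 culture, and the second count column carries another name than its description and was matched by its replicate number.

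D cyclins are the part of the G1 machinery that responds to growth signals. They bind CDK4 or CDK6, the complex phosphorylates the retinoblastoma protein RB1, and phosphorylated RB1 releases the E2F factors that switch on genes of DNA replication. CDKN2C (p18) and CDKN2D (p19) are inhibitors of the INK4 family, which bind CDK4 and CDK6 directly. CDKN1A (p21) and CDKN1B (p27), of the Cip/Kip family, act on cyclin-CDK2 complexes and are also bound by cyclin D complexes. In the B lineage, large pre-B cells divide in response to the pre-B cell receptor and interleukin-7 and then stop dividing to become small resting pre-B cells, and cyclin D3 is known to be needed for the dividing stage.

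Total counts ranged from 33296158 to 46868954 per library, with a median of 40943260. Values are given as CPM, counts scaled by library size, after TMM scaling, a correction for differences in library composition. Because chromatin-associated RNA was counted over whole gene bodies with introns, a long gene collects more reads. Levels of different genes are therefore compared mainly as CPM per kb of gene body, and by counts, CPM or exon length where stated. Of the B lineage markers, 8 of 10 passed the filter, and the summed level of the list lay between 7820 and 16100 CPM in every library. Ebf1 alone gave 9790 of the 11100 CPM of this sum at 0 h. The single markers did not move together. At 24 h 2 of the 8 were lower and 5 higher (edgeR adjusted p under 0.01, past 2-fold). Of all genes tested, 20.1% were lower and 20% higher. Rag1 and Rag2 had 0 counts throughout, but both lie wholly inside the annotated gene B230118H07Rik, where reads are seldom assigned to the inner gene, so these zeros do not speak to the cell type. The summed levels of the other lists were 2.44 to 6.42 CPM for T lineage, 0.194 to 1.62 CPM for myeloid, 0.173 to 0.777 CPM for erythroid and at most 0.0467 CPM for fibroblast markers. The 2 libraries of a time differed more at 12, 18 and 21 h than at the other times, with a chi-square per degree of freedom of 9.04, 13.4 and 4.42 against 1.24 to 2.43 elsewhere.

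Promoter sequences are shown for some of the members, whose RNA moved in opposite directions or moved little. Their letters can so be read beside the responses. The sequences are those of RefSeq on GRCm38.p6, from 250 bases before to 50 bases after a transcription start, and 7 of the 10 members had at least 1, giving 10 promoters. Ccnd1, Ccnd2 and Rb1 had no entry in the promoter set used, so their promoters were not examined. Capitals mark GGGAA on either strand (written TTCCC on the other), the core of the sequence IKZF1 is known to bind. Ccnd3 has a promoter at its outer start (chr17:47504801-47505100) and another at an inner start (chr17:47593217-47593516), 88.4 kb apart on the plus strand. Cdkn1b, on chr6:134920151-134920450, rose, Cdk6, on chr5:3343643-3343942, fell, and Cdk4, on chr10:127063285-127063584, moved by less than 2-fold, and all 3 are on the plus strand.
Ccnd3, outer start: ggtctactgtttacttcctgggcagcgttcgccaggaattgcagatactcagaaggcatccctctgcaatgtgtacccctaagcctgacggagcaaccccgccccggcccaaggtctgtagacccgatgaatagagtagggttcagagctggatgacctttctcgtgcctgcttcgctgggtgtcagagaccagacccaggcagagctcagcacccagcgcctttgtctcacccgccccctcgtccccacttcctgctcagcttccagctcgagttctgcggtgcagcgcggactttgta
Ccnd3, inner start: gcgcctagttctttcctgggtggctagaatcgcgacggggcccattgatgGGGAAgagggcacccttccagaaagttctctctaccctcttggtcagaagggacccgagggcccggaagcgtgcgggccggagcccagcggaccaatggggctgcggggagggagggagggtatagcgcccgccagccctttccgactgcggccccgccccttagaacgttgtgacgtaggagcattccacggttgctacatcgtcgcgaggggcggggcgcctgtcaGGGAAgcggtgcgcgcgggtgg
Cdkn1b: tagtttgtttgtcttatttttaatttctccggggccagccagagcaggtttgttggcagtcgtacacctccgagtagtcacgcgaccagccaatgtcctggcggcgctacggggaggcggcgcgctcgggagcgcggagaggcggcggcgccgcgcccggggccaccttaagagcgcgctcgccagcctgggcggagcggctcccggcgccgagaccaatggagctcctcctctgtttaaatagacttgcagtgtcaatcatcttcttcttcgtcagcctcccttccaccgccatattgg
Cdk6: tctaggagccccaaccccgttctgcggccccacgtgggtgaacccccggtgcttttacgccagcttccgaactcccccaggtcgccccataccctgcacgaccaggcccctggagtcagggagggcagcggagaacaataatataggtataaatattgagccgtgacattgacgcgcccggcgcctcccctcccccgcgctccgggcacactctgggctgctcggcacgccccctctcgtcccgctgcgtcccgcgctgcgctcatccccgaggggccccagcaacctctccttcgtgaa
Cdk4: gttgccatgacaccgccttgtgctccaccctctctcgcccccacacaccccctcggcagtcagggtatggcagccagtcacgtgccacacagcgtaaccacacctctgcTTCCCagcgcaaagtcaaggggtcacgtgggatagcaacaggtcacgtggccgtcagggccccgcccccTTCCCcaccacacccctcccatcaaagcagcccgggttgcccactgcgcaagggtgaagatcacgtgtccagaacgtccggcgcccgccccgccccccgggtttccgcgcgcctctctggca
The inner Ccnd3 promoter and that of Cdk4 each hold 2 matches, and the outer Ccnd3 promoter and those of Cdkn1b and Cdk6 hold 0. Of the promoters not shown, those of Cdkn1a hold 0 and 2, those of Cdkn2c 1 and 0, and that of Cdkn2d 2. Over the 7 members with a promoter, 5 of 10 promoters hold GGGAA, beside 62.7% of 32851 RefSeq mouse promoters of the same length. The shorter GGAA, which also lies within GGGAA, was found in 96.0% of all promoters and in each of the 10. A match describes letters in this window and is no evidence of binding.

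Over the time course, 8 of the 10 members changed (edgeR quasi-likelihood F test, Benjamini-Hochberg adjusted p under 0.01 and more than 2-fold from 0 h at any time), as did 51.9% of the 16601 genes tested. The exceptions were Cdk4 and Cdkn2d, whose largest log2 changes were -0.79 and 0.80. Cdk6 stood 14th in rank of F among all genes tested, and Cdkn2d stood at rank 12449. A rank of F reflects the precision of the fit as well as the size of the change. Ccnd2 stood at rank 324 although its largest log2 change, -4.55, was further from 0 than that of Cdk6, -2.71.

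**Figure D1:**
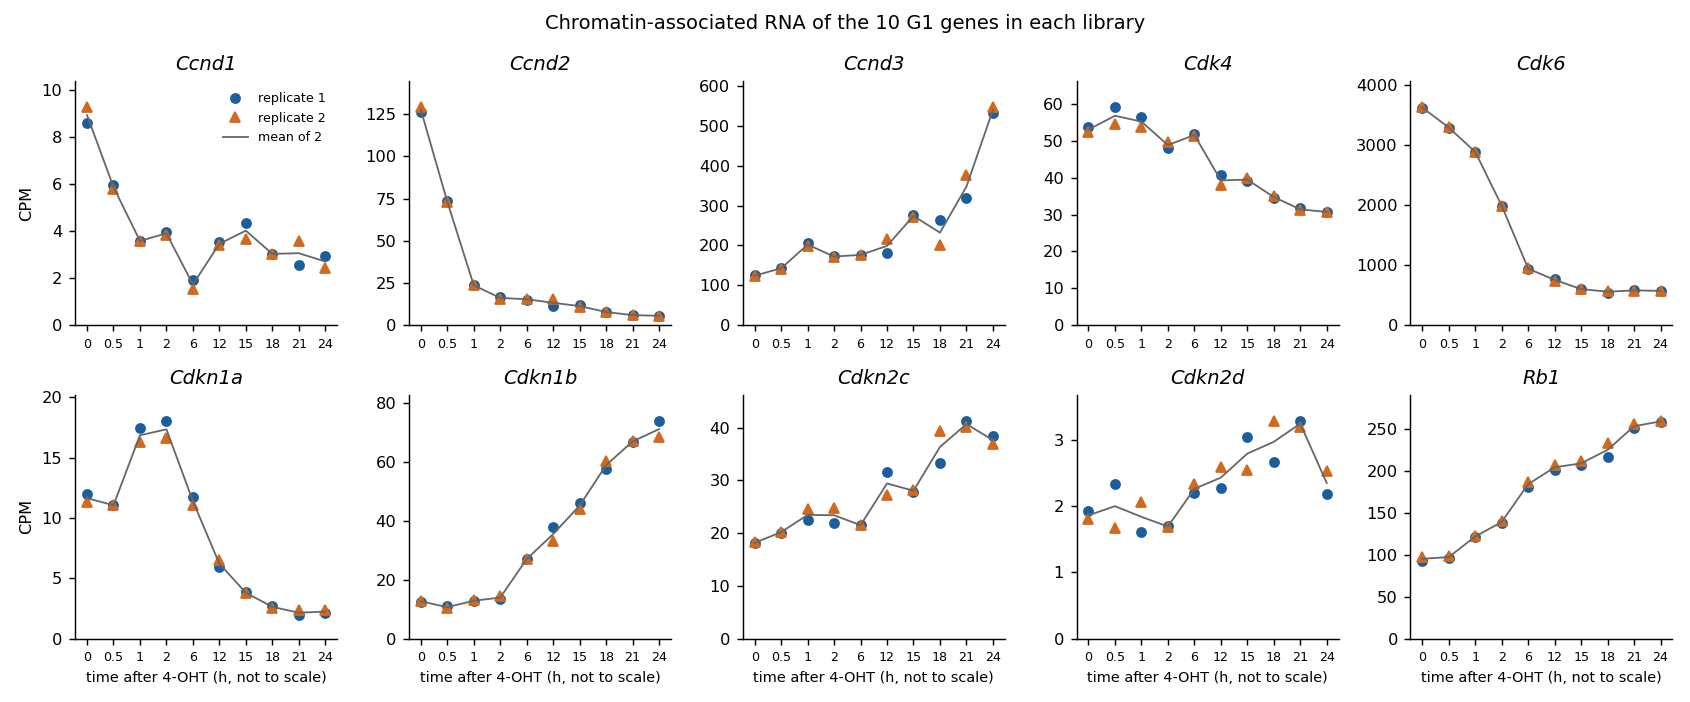
Chromatin-associated RNA of each of the 10 genes (y axis, CPM after TMM scaling, from 0, with a separate range per panel) against time after 4-OHT (x axis, h, evenly spaced and not to scale). Circles and triangles are the 2 libraries of each time and the line is their mean. Ccnd2 and Cdk6 fell within hours, Ccnd3, Cdkn1b and Rb1 ended above 0 h, and Cdkn1a rose to 17.4 CPM at 2 h and then fell to 2.24 CPM at 24 h.

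Ccnd2 fell furthest of the D cyclins. This gene, which encodes cyclin D2, lies at chr6:127125162-127152193 on the minus strand. Its level was 126 and 129 CPM in the 2 libraries at 0 h, 73.4 and 72.8 after 0.5 h, 23.6 and 23.4 after 1 h, 16.6 and 15.5 after 2 h, and 15.0 and 15.6 after 6 h. It went on to 10.98 and 15.4 CPM after 12 h, 11.8 and 10.6 after 15 h, 7.63 and 7.75 after 18 h, 5.80 and 5.92 after 21 h, and 5.31 and 5.59 after 24 h. The 0 h libraries were above every later library, and most of the loss had taken place by 1 h. The log2 fold change against 0 h was -0.80 at 0.5 h (SE 0.070, edgeR quasi-likelihood adjusted p = 5.78e-08), -2.44 at 1 h (SE 0.077) and -2.99 at 2 h (SE 0.081). Between 2 and 6 h the level differed by -0.07 on the log2 scale (adjusted p = 0.557), and then a slower decline followed, with a step of -0.54 from 15 to 18 h (edgeR adjusted p = 0.000335). At 24 h the level was 23.4-fold below 0 h (log2 -4.55, SE 0.096, edgeR adjusted p = 1.34e-20). The midpoint of this change on the log2 scale, found by linear interpolation between times, was reached at 57.0 min, and the replicates taken alone gave 0.96 and 0.94 h.

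Ccnd1, which encodes cyclin D1 and lies at chr7:144929931-144939925 on the minus strand, started from a lower level and fell as early, but it did not keep falling. It had 8.58 and 9.26 CPM at 0 h, 5.93 and 5.79 after 0.5 h, 3.56 and 3.59 after 1 h, 3.97 and 3.82 after 2 h, and 1.91 and 1.53 after 6 h. From there it had 3.51 and 3.39 CPM after 12 h, 4.35 and 3.66 after 15 h, 3.02 and 3.02 after 18 h, 2.54 and 3.56 after 21 h, and 2.95 and 2.44 after 24 h. The 6 h libraries were the lowest of all 20, and every library after 0 h was below both at 0 h. Ccnd1 was lower by 0.5 h (log2 -0.61, SE 0.103, edgeR adjusted p = 0.000276) and reached log2 -2.37 at 6 h (SE 0.127). It then rose from 6 to 12 h (log2 1.00, SE 0.155, edgeR adjusted p = 2.34e-05), and at 24 h it stood at log2 -1.73 against 0 h (SE 0.123, edgeR adjusted p = 2.45e-11). The midpoint of its fall to the 6 h minimum lay at 54.6 min.

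Ccnd3, which encodes cyclin D3 and lies at chr17:47505051-47599691 on the plus strand, moved the other way. It had 124 and 124 CPM at 0 h, 144 and 141 after 0.5 h, 206 and 198 after 1 h, 174 and 170 after 2 h, and 176 and 177 after 6 h. Later it had 181 and 217 CPM after 12 h, 277 and 271 after 15 h, 264 and 200 after 18 h, 318 and 378 after 21 h, and 533 and 547 after 24 h. Every later library was above both at 0 h, in an early step within 1 h, a stretch from 2 to 6 h of 170 to 177 CPM, and a late rise that was steepest in the last interval. The early step was log2 0.70 at 1 h (SE 0.092, edgeR adjusted p = 1.67e-06), below 2-fold. The level differed by log2 0.04 between 2 and 6 h (adjusted p = 0.776), and it increased from 12 to 15 h (log2 0.46, edgeR adjusted p = 0.000553), from 18 to 21 h (log2 0.58, edgeR adjusted p = 6.16e-05) and from 21 to 24 h (log2 0.63, edgeR adjusted p = 4.07e-05). At 24 h Ccnd3 was 4.35-fold above 0 h (log2 2.12, SE 0.094, edgeR adjusted p = 5.64e-15). The lower mean at 18 h, 232 ± 45.3 CPM (SD, n = 2), came from libraries that differed from each other, and the step from 15 to 18 h had an adjusted p of 0.0409 (edgeR), above the 0.01 threshold.

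The balance among the D cyclins therefore shifted towards Ccnd3. Of the counts on the 3 genes, Ccnd2 had 48.98% ± 0.42 and Ccnd3 47.6% ± 0.57 at 0 h (SD, n = 2), and Ccnd3 had 88.2% ± 0.26 at 1 h and 98.5% ± 0.057 at 24 h. Per kb of gene body, Ccnd2 made up 68.2% ± 0.064 of the 3 at 0 h, Ccnd3 18.9% ± 0.40 and Ccnd1 12.9% ± 0.47. At 24 h these shares were 3.26% ± 0.077 for Ccnd2, 92.4% ± 0.56 for Ccnd3 and 4.37% ± 0.64 for Ccnd1. Which D cyclin led at 0 h depends on the length used, because with the length of exons alone Ccnd2 had 45.8% and Ccnd3 47.8%, while at 24 h Ccnd3 led by this measure too, with 98.2%. The summed level of the 3 D cyclins per kb went from 6.92 ± 0.12 CPM per kb at 0 h to 2.60 ± 0.0035 at 6 h and was 6.18 ± 0.079 at 24 h, by then mostly as Ccnd3. This sum depends on the length as well, since per kb of exons it went from 29.6 ± 0.29 through 22.1 ± 0.062 to 62.7 ± 1.1. The gene body of Ccnd3, 94.6 kb, runs from its outer start, and the inner start lies 88.4 kb downstream. Over the shorter stretch from the inner start, Ccnd3 would have a higher level per kb at every time. Which start was in use was not tested, and the shares and sums per kb of gene body depend on it.

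**Figure D2:**
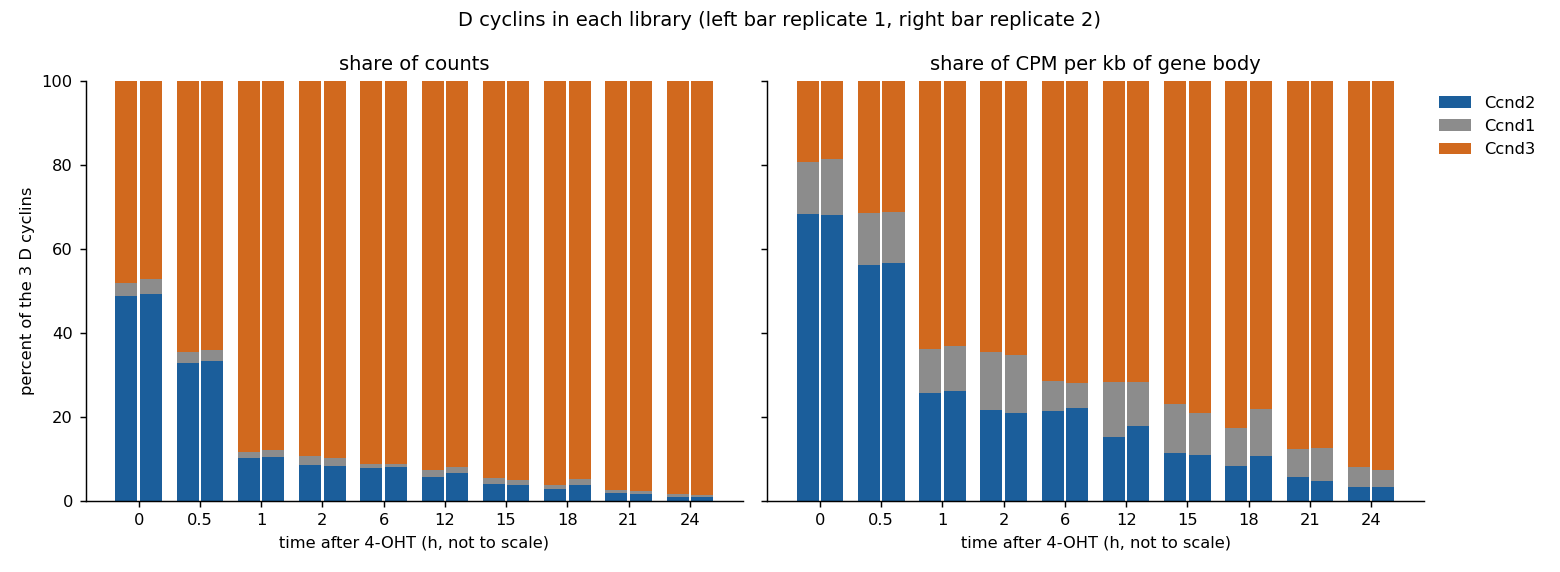
Share of each D cyclin (y axis, percent of the 3 genes) in every library against time after 4-OHT (x axis, h, not to scale), from counts on the left and from CPM per kb of gene body on the right. The left bar of each pair is replicate 1 and the right bar replicate 2. By counts Ccnd3 took 47.6% at 0 h and 88.2% at 1 h, and by CPM per kb 18.9% at 0 h and 92.4% at 24 h.

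The ratio of 2 genes within a library does not depend on how libraries are scaled, so the D cyclins were also compared as log2 ratios of counts, with a permutation F test over time (100000 permutations of the 20 libraries, adjusted over the 9 pairs of D cyclins and of inhibitors and read at 0.05). The log2 ratio of Ccnd2 to Ccnd3 was 0.04 ± 0.030 at 0 h, -3.42 ± 0.044 at 2 h and -6.63 ± 0.026 at 24 h (SD, n = 2), a 102-fold shift. The ratio of Ccnd1 to Ccnd3 went from -3.80 ± 0.083 to -7.65 ± 0.22, and that of Ccnd1 to Ccnd2 from -3.84 ± 0.053 to -1.02 ± 0.25. All 3 ratios changed over time, with adjusted p = 1e-05 for the pairs with Ccnd2 and 2.25e-05 for Ccnd1 and Ccnd3 (permutation test). An adjusted p of 1e-05 is rounded to a single digit here and below. Before adjustment, 1e-05 is the smallest p these permutations can give. The pair that fell together, Ccnd1 and Ccnd2, thus also differed from each other, since Ccnd2 fell further.

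The genes whose time profile was most like that of each D cyclin were taken by Pearson's r of mean log2 CPM over the 10 times, among the 9283 or 9284 other genes with at least 5 CPM, as a description. For Ccnd2 they were Dusp4 (r = 0.995), which encodes a phosphatase of MAP kinases, Ttll11 (r = 0.995), of the tubulin tyrosine ligase-like family, and Pag1 (r = 0.993), a membrane adaptor of Src family kinase signalling. For Ccnd1 they were the antisense RNA Hoxb5os (r = 0.949), Hoxb3 (r = 0.943), a homeobox factor, and Tiam2 (r = 0.941), an exchange factor of the GTPase RAC. For Ccnd3 they were Eif2ak1 (r = 0.983), the haem-regulated kinase of translation factor eIF2, Kmt5b (r = 0.980), a histone H4 methyltransferase, and Tmem94 (r = 0.979). These profiles share the 20 libraries, and such r values only rank genes.

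Cdk6, the largest gene of the group and the one with the most counts, lost most of its chromatin-associated RNA within 6 h. It lies at chr5:3341485-3531008 on the plus strand, with a gene body of 189.5 kb. It had 3612 and 3625 CPM at 0 h, 3277 and 3294 after 0.5 h, 2885 and 2875 after 1 h, 1980 and 1988 after 2 h, and 928 and 947 after 6 h. The later libraries had 761 and 740 CPM after 12 h, 593 and 604 after 15 h, 539 and 568 after 18 h, 580 and 572 after 21 h, and 568 and 568 after 24 h. The level went down at every step to 18 h and lay between 539 and 580 CPM from 18 to 24 h, with no overlap of any later library with 0 h. The log2 fold change was -0.14 at 0.5 h (SE 0.030, edgeR adjusted p = 0.00253), -0.87 at 2 h, -1.95 at 6 h and -2.67 at 24 h (SE 0.032, edgeR adjusted p = 2.88e-24, 6.37-fold lower). Its midpoint lay at 3.80 h, against 57.0 min for Ccnd2. Reads were counted over whole gene bodies, and that of Ccnd2 is 27.0 kb long. How far gene length shifts such midpoints was not tested.

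Cdk4, the other kinase partner (chr10:127063534-127067920, plus strand), kept its level for hours and then fell by less than 2-fold. It had 53.9 and 52.3 CPM at 0 h, 48.0 and 49.7 after 2 h, 51.9 and 51.4 after 6 h, 40.6 and 37.9 after 12 h, and 30.8 and 30.6 after 24 h. At 6 h the difference from 0 h was log2 -0.04 (adjusted p = 0.468), whereas from 6 to 12 h it fell by 0.40 on the log2 scale (edgeR adjusted p = 1.81e-06), and at 24 h it stood at log2 -0.79 (SE 0.051, edgeR adjusted p = 4.71e-12). Per kb of gene body Cdk6 made up 61.2% ± 0.54 of the 2 kinase genes at 0 h and 29.97% ± 0.11 at 24 h (SD, n = 2). Per kb of exons Cdk6 made up 94.1% and 81.1%, so a lower share of Cdk6 was found with both lengths, but that Cdk4 led at 24 h holds for the gene body alone. Their summed level went from 31.2 ± 0.20 to 10.00 ± 0.031 CPM per kb of gene body, 3.12-fold lower, and was 5.50-fold lower per kb of exons.

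Rb1, which encodes the substrate of these kinases and a repressor of E2F, rose over the hours in which Cdk6 fell, and before Cdk4 did. It lies at chr14:73183673-73325822 on the minus strand and had 92.9 and 97.0 CPM at 0 h, 96.0 and 98.2 after 0.5 h, 120 and 123 after 1 h, 138 and 140 after 2 h, and 181 and 187 after 6 h. It went on to 201 and 207 CPM after 12 h, 206 and 211 after 15 h, 216 and 233 after 18 h, 251 and 255 after 21 h, and 258 and 259 after 24 h. From 1 h on, every library was above both at 0 h. The rise was log2 0.36 at 1 h (SE 0.039, edgeR adjusted p = 1.51e-07), 0.95 at 6 h and 1.45 at 24 h (SE 0.039, edgeR adjusted p = 1.04e-18, 2.72-fold). Its midpoint, 3.72 h, lay near that of the fall in Cdk6. Rb1 too is a long gene, of 142 kb, and the part of gene length in this midpoint was not tested.

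**Figure D3:**
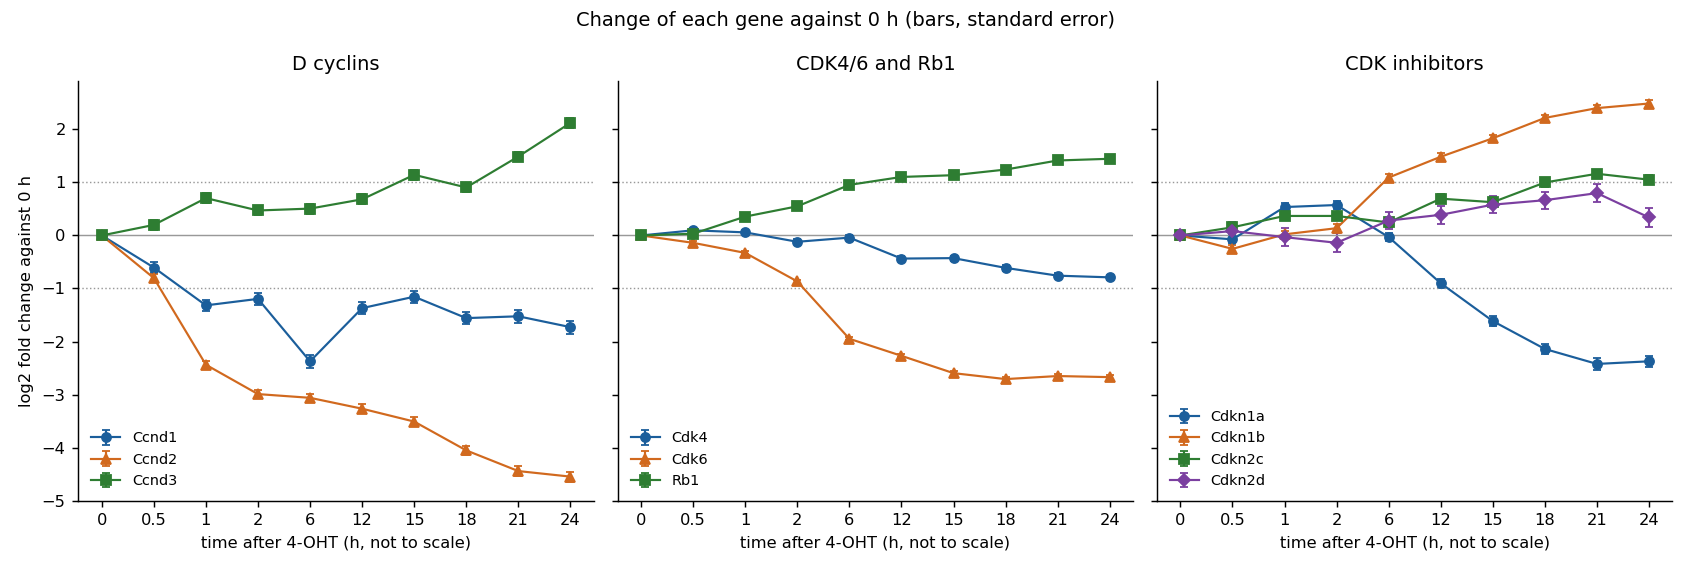
Log2 fold change of each gene against 0 h (y axis; bars, standard error of the edgeR fit; dotted lines, 2-fold) against time after 4-OHT (x axis, h, not to scale), for the D cyclins, for CDK4/6 with Rb1, and for the CDK inhibitors. At 24 h the values ran from -4.55 for Ccnd2 to 2.49 for Cdkn1b.

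The 4 inhibitor genes did not move as a group. Cdkn1b, which encodes p27 and lies at chr6:134920401-134925513 on the plus strand, rose most. It was the only member called higher at 6 h, and the midpoint of its rise lay at 8.33 h. It had 12.6 and 12.8 CPM at 0 h, 10.9 and 10.3 after 0.5 h, 12.7 and 13.02 after 1 h, 13.5 and 14.3 after 2 h, and 26.9 and 27.1 after 6 h. Afterwards it had 37.8 and 33.2 CPM after 12 h, 46.2 and 44.1 after 15 h, 57.4 and 60.3 after 18 h, 66.7 and 67.1 after 21 h, and 73.9 and 68.2 after 24 h. Up to 2 h its libraries stayed within 10.3 to 14.3 CPM, and from 6 h on all were above 26 CPM. At 2 h the difference from 0 h was log2 0.14 (adjusted p = 0.113). The increase from 2 to 6 h was log2 0.96 (SE 0.067, edgeR adjusted p = 2.56e-10), and at 24 h the level was 5.61-fold above 0 h (log2 2.49, SE 0.064, edgeR adjusted p = 3.77e-19).

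Cdkn1a, which encodes p21, a known target of p53, rose early and then fell below its starting level. It lies at chr17:29090976-29100727 on the plus strand. It had 12.0 and 11.3 CPM at 0 h, 11.1 and 11.1 after 0.5 h, 17.4 and 16.3 after 1 h, 18.1 and 16.6 after 2 h, and 11.7 and 11.1 after 6 h. Then it had 5.89 and 6.53 CPM after 12 h, 3.84 and 3.76 after 15 h, 2.71 and 2.56 after 18 h, 1.93 and 2.36 after 21 h, and 2.09 and 2.39 after 24 h. The libraries at 1 and 2 h were above those at 0 h, those at 6 h overlapped them, and all from 12 h on were below. The early rise was log2 0.54 at 1 h (SE 0.072, edgeR adjusted p = 2.47e-06) and 0.57 at 2 h (SE 0.073, edgeR adjusted p = 6.94e-07). At 24 h Cdkn1a stood at log2 -2.37 (SE 0.104, edgeR adjusted p = 4.79e-15, 5.18-fold lower).

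The INK4 genes changed less. Cdkn2c, which encodes p18 (chr4:109660876-109667189, minus strand), had 18.1 and 18.2 CPM at 0 h, 22.4 and 24.5 after 1 h, 21.5 and 21.5 after 6 h, 33.3 and 39.3 after 18 h, 41.3 and 40.0 after 21 h, and 38.4 and 36.8 after 24 h. Every library after 0 h was above both at 0 h, and the log2 change was 0.37 at 1 h (SE 0.080, edgeR adjusted p = 0.000687) and 1.05 at 24 h (SE 0.079, edgeR adjusted p = 6.13e-11). The 24 h value lies just past the 2-fold line, and with scaling by library totals alone it was 0.79. Cdkn2d, which encodes p19 (chr9:21288410-21291407, minus strand), was the lowest of the 10 genes in CPM at 0 h, with 1.92 and 1.80. It reached 3.29 and 3.20 CPM after 21 h (log2 0.80, SE 0.163, edgeR adjusted p = 0.000147) and had 2.18 and 2.52 CPM after 24 h (log2 0.34, SE 0.172, edgeR adjusted p = 0.0786), so that a rise at 21 h did not pass the test at 24 h.

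**Figure D4:**
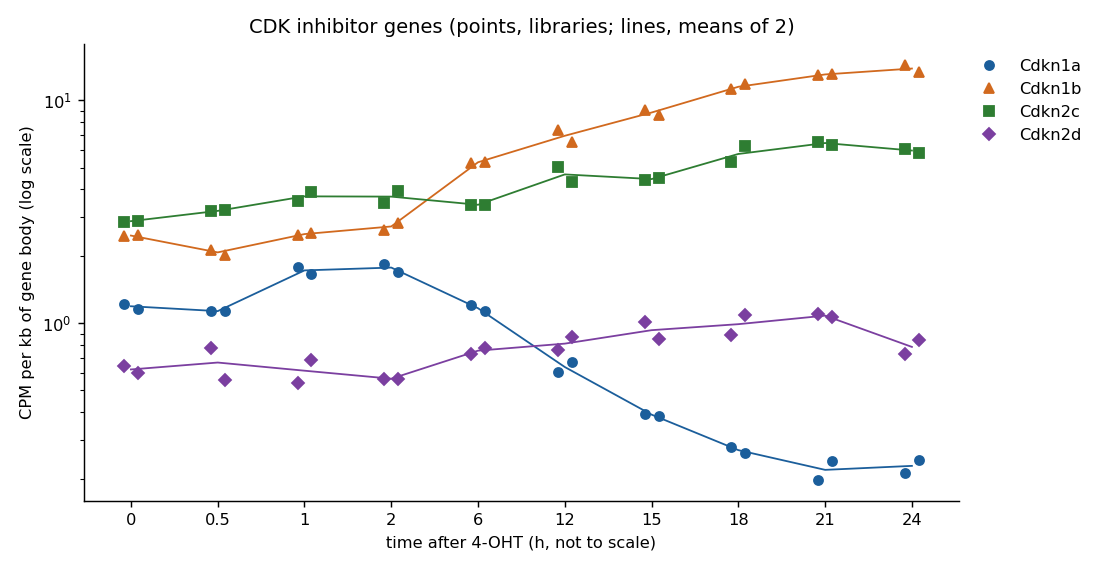
Level of the 4 CDK inhibitor genes in every library (y axis, CPM per kb of gene body, log scale) against time after 4-OHT (x axis, h, not to scale), with the replicates shifted sideways and lines through the means of 2. Cdkn1b went from 2.48 CPM per kb at 0 h to 13.9 at 24 h and Cdkn1a from 1.19 to 0.230.

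Within the inhibitors the share of Cdkn1b grew. Per kb of gene body, Cdkn1b made up 34.6% ± 0.51 of the 4 at 0 h and 66.6% ± 1.0 at 24 h (SD, n = 2), and per kb of exons 19.9% and 49.2%. Cdkn2c went from 40.1% ± 0.44 to 28.6% ± 0.33, Cdkn1a from 16.7% ± 0.59 to 1.10% ± 0.15, and Cdkn2d from 8.67% ± 0.36 to 3.77% ± 0.55. The summed level was 7.16 ± 0.035 CPM per kb at 0 h and 20.9 ± 0.86 at 24 h, 2.91-fold higher, and 2.27-fold higher per kb of exons. The log2 ratio of Cdkn1a to Cdkn1b was -0.12 ± 0.072 at 0 h, 0.32 ± 0.15 at 2 h and -4.99 ± 0.22 at 24 h, a 29.2-fold shift (permutation test, adjusted p = 1e-05). Of the other 5 pairs, 4 had adjusted p = 1e-05 (permutation test). For Cdkn2c and Cdkn2d it was 0.0289 (permutation test), under 0.05 but above 0.01, with log2 ratios of 3.29 ± 0.075 at 0 h and 4.004 ± 0.19 at 24 h.

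Across the 10 genes, the order of levels per kb of gene body at 0 h ran from Cdk6 (19.1 ± 0.051 CPM per kb) and Cdk4 (12.1 ± 0.25) through Ccnd2 (4.72 ± 0.081), Cdkn2c (2.87 ± 0.017), Cdkn1b (2.48 ± 0.024), Ccnd3 (1.31 ± 0.0045), Cdkn1a (1.19 ± 0.048) and Ccnd1 (0.892 ± 0.048) to Rb1 (0.668 ± 0.021) and Cdkn2d (0.621 ± 0.029). Rb1 and Cdkn2d lay closer together than the sum of their SDs. At 24 h Cdkn1b led with 13.9 ± 0.78 CPM per kb, ahead of Cdk4 (7.0 ± 0.031), Cdkn2c (5.96 ± 0.18), Ccnd3 (5.71 ± 0.11), Cdk6 (2.996 ± 0.0030), Rb1 (1.82 ± 0.0075) and Cdkn2d (0.784 ± 0.082). Ccnd1 (0.270 ± 0.036), Cdkn1a (0.230 ± 0.022) and Ccnd2 (0.202 ± 0.0074) were last. Cdkn2c and Ccnd3, Ccnd1 and Cdkn1a, and Cdkn1a and Ccnd2 were neighbours that differed by less than the sum of their SDs. Both orders hold for the gene body only, with that of Ccnd3 taken from its outer start. Per kb of exons Cdk6 led at 0 h with 259 ± 0.66 CPM per kb, followed by Cdk4 (16.3 ± 0.33) and Rb1 (15.8 ± 0.49), and at 24 h Ccnd3 (61.6 ± 1.2), Rb1 (42.98 ± 0.18) and Cdk6 (40.6 ± 0.040) stood above Cdkn1b (15.6 ± 0.88), with Cdkn1a, Ccnd2 and Ccnd1 again last.

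Past 2-fold, falls were called at earlier times than rises. At 0.5 h, 0 of 10 members were lower by the fold rule, and 0.410% of all genes were. By adjusted p alone, at any fold, 3 were lower (Ccnd1, Ccnd2 and Cdk6), beside 4.74% of all genes, and 0 were higher in edgeR, beside 3.7% of all genes. At 1 h, 2 were lower past 2-fold (Ccnd1 and Ccnd2) beside 4.84% of all genes, and 0 were higher beside 2.33%. By adjusted p alone 3 were lower at 1 h (Ccnd1, Ccnd2 and Cdk6), beside 17.1% of all genes, and 4 were higher (Ccnd3, Cdkn1a, Cdkn2c and Rb1), beside 19.2%. At 2 h, 2 were lower past 2-fold and 0 higher, beside 6.91% and 6.25% of all genes, and by adjusted p alone the 3 lower and 4 higher genes of 1 h were called again, beside 23.8% and 23.9%. With an unadjusted p under 0.05, 4 members were lower and 1 higher at 0.5 h, beside 12.5% and 13.3% of all genes. At 1 h this held for 3 lower and 4 higher, beside 24.2% and 27.1%, and at 2 h for 4 lower and 4 higher, beside 30% and 31%. DESeq2 likewise gave 0 higher past 2-fold at 1 and 2 h. At 6 h, 3 were lower and 1 higher, beside 9.13% and 10.9%, and at 12 h, 3 were lower and 2 higher, beside 9.92% and 13.2%. At 24 h, 4 were lower (Ccnd1, Ccnd2, Cdk6 and Cdkn1a) and 4 higher (Ccnd3, Cdkn1b, Cdkn2c and Rb1), beside 20.1% and 20% of all genes. The median log2 fold change of the 10 at 24 h was -0.23, and that of all genes tested -0.01. In bulk RNA, a change in the share of cells in each cell cycle phase and a change in RNA per cell cannot be told apart.

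Other genes annotated over the members touch some of these values. The kit marks strand, but the strand setting of the counting is not given in the sources used here. Of 3656 genes lying wholly inside a gene of the other strand that had at least 1000 counts, 3651 had 0 counts in all 20 libraries, as did 3849 of 3850 inside a gene of the same strand, against 15.1% of other coding genes. Reads in shared stretches were thus seldom assigned to the inner gene. Whether they were left out or given to the outer gene was not tested. A count of 0 for Lpar6, which lies inside Rb1, says nothing about its transcription. Gm17590 and Gm42435 over Cdk6, AC167363.2 over Cdkn1a, and Gm17233 and Mir687 over Rb1 likewise had 0 counts. LTO1 overlaps the end of Ccnd1 by 1771 bp, Bysl that of Ccnd3 by 361 bp, Tspan31 that of Cdk4 by 641 bp and Rcbtb2 that of Rb1 by 24171 bp, all on the opposite strand. At 24 h LTO1 had log2 -0.10 (adjusted p = 0.133) and Rcbtb2 -0.35 (edgeR adjusted p = 3.24e-06), while Bysl had -2.00 and Tspan31 -1.22, so that Bysl and Ccnd3 moved in opposite directions. Over Ccnd2 lie 2 antisense RNAs. Gm43126, at its 3′ end, fell at 1 h (log2 -2.29, edgeR adjusted p = 6.58e-05) from 0.729 ± 0.084 CPM at 0 h. At the 5′ end 9330179D12Rik, which shares 2805 bp, fell at 1 h (log2 -1.04, edgeR adjusted p = 5.32e-07) and at 24 h was at log2 -0.09 (adjusted p = 0.513), unlike Ccnd2. The part of misassigned reads in these values was not tested.

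Among other genes of the G1/S transition, most falls past 2-fold were called late, while some smaller falls were already present at 2 h. On a list of 25 such genes, which holds none of the 10 members, 23 could be tested. At 2 h 1 was lower past 2-fold (Skp2) and 0 were higher, beside 6.91% and 6.25% of all genes tested. At 12 h 2 were lower and 0 higher, beside 9.92% and 13.2%. At 24 h 13 were lower and 2 higher, beside 20.1% and 20% of all genes tested, and 8 were not past the rule. The median log2 fold change of the list was -1.32. Ccne1, which encodes cyclin E1, the partner of CDK2, had 17.8 ± 0.037 CPM at 0 h and 1.09 ± 0.19 at 24 h (SD, n = 2, log2 -4.02), while at 2 h its log2 change was -0.01 (adjusted p = 0.966). E2f8 and E2f7, which encode repressive E2F factors, had log2 changes of -3.84 and -3.07 at 24 h. Both were already lower at 2 h, by less than 2-fold. Their log2 changes were then -0.58 (edgeR adjusted p = 6.45e-10) and -0.35 (edgeR adjusted p = 4.27e-07). Skp2, a subunit of the ubiquitin ligase that marks p27 for destruction, went from 114 ± 1.3 CPM at 0 h to 334 ± 6.3 at 24 h (log2 1.55) after a fall at 2 h (log2 -1.22, edgeR adjusted p = 3.04e-16). Skp2 and Cdkn1b were thus both higher at 24 h. Tfdp2, which encodes a partner of E2F, rose by log2 1.39, from 125 ± 2.4 to 329 ± 10.4 CPM.

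**Figure D5:**
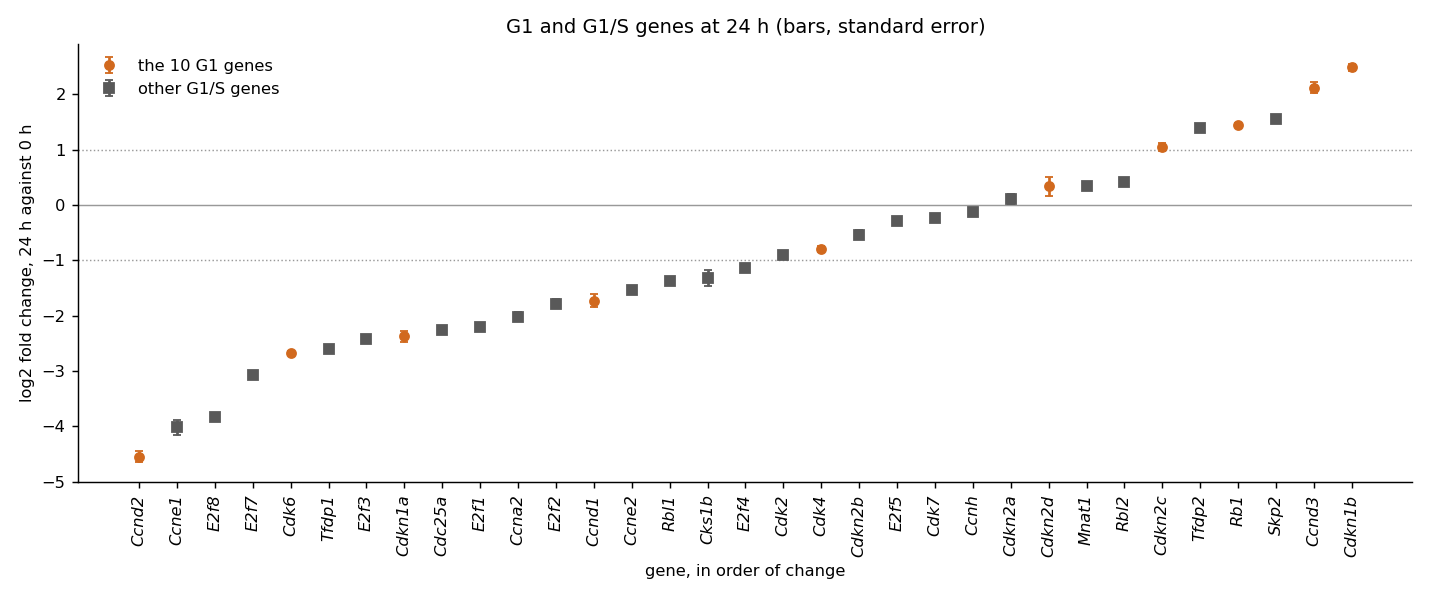
Log2 fold change at 24 h against 0 h (y axis; bars, standard error; dotted lines, 2-fold) of the 10 G1 genes (circles) and of the 23 tested genes of the G1/S list (squares), in order of change (x axis). Ccnd2 has the lowest value, -4.55, Ccne1 the next, -4.02, and Ccnd3 and Cdkn1b the highest, 2.12 and 2.49.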

How the data were processed

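Chromatin-associated RNA was sequenced from 20 libraries, 2 at each of 10 times. Per the labels and the study's methods, the authors made the libraries with a directional kit after rRNA depletion, aligned reads to GRCm38 with STAR in nf-core/rnaseq and deposited raw counts per gene from featureCounts with intronic reads included. The submitters' processing notes also name CASAVA 2.17. The annotation release is not given in the sources used here, and 55240 of the 56239 identifiers are in GENCODE M21, from which coordinates and lengths were taken.

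The 16601 genes that reached 10 counts in 2 or more libraries were fitted in edgeR 4.0.16 (R 4.3.3), by quasi-likelihood with TMM scaling and time as a factor over all 20 libraries, and p-values were adjusted by Benjamini-Hochberg over all genes tested. A gene was called at adjusted p under 0.01 and more than 2-fold change. Total counts per library are given above, and no interval was put on single counts. Log2 ratios of counts were tested by permuting library times (100000 draws, numpy 2.4.6, Python 3.11.15). Scripts were tested on simulated data. Alternatives were DESeq2 1.42.0, other scalings, filters and thresholds, fits without each library, only the 4 libraries compared, a replicate block, and, chosen after seeing the data, leaving out the 6 libraries at 12, 18 and 21 h and other gene lengths. All members were named, and beyond them the 3 largest called rises and falls of each list at 24 h, overlapping genes and the 3 most similar profiles for each D cyclin. Cdkn2a, Cdkn2b and Cdkn1c were named after their values were seen, as the remaining genes of the inhibitor families. Rag1, Rag2, the gene around them and Ebf1 were also named after their values were seen, as were Mdm2, Zmat3, Bbc3, Ccng1 and Bax. The members and lists were chosen with earlier results of these data known. Levels of genes that share a stretch with another gene may miss reads of that stretch.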

Additional observations from a re-analysis of the deposited data

How the results depend on the processing

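No called direction of a member turned under any alternative. By adjusted p under 0.01 at any fold, the number of members higher became 4 at 1 h, 4 at 2 h, 3 at 6 h and 4 at 12 h and stayed at 4 at 24 h, the number lower became 3 at 1 h, 3 at 2 h, 5 at 12 h and 5 at 24 h and stayed at 3 at 6 h, and 10 changed over the time course, by construction of the looser rule. Scaling by library totals alone moved the median of all genes at 24 h by -0.26 (log2) and the share of falls among called genes from 50% to 62.1%, with Cdk4 then called (-1.05) and Cdkn2c not (0.79). With the 12, 18 and 21 h libraries left out, 4 members were still lower and 4 higher at 24 h. Without any 1 library, the number of members lower and higher at 24 h was 4 and 4 each time, and Ccnd2 at 24 h ranged from -4.58 to -4.51, Ccnd3 from 2.11 to 2.14 and Cdkn1b from 2.43 to 2.55. With the length of gene body under no other gene, Ccnd2 had 69.6% and Ccnd3 16.7% of the D cyclin level per kb at 0 h, and Ccnd3 91.1% at 24 h, and Cdk6 had 58.6% of the CDK4/6 level at 0 h and 27.8% at 24 h.

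On average, libraries of the same replicate number did not deviate alike. The mean correlation of same-numbered deviations over 45 pairs of times was 0.0046 (-0.51 to 0.30, 12056 genes). A mean over so wide a range cannot exclude pairing between some of the times. With a replicate block, 4 members were lower and 4 higher at 24 h and 8 changed over the time course, as without it.

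Depth limits Cdkn2d, Ccnd1 and, from 21 h on, Cdkn1a most, with 57 to 131 counts per library at 21 and 24 h. Only 2 libraries per time were used, and the p-values rest on a spread shared across times.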

Other observations

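Because Cdkn1a is a known target of p53, a list of 14 other p53 targets was followed beside it. Of these, 10 could be tested, and at 24 h 3 were lower past 2-fold and 2 higher, beside 20.1% and 20% of all genes tested, with a median log2 fold change of -0.30. Aen, which encodes a nuclease of apoptosis, fell by 2.72 on the log2 scale at 24 h, from 68.0 ± 0.96 to 10.3 ± 0.075 CPM (SD, n = 2). Sesn2, a regulator of growth signalling under stress, fell by 1.87. Eda2r, a receptor of the tumour necrosis factor family, had 12 and 11 counts at 0 h and 0 in both libraries at 24 h, at least 2.97-fold lower against a floor of 3 counts per library. Trp53inp1, which encodes a p53-inducible nuclear protein, rose from 22.1 ± 1.2 to 554 ± 4.4 CPM (log2 4.65), and Btg2, an antiproliferative gene, from 0.198 ± 0.025 to 1.38 ± 0.19 CPM (log2 2.78). At 2 h, when Cdkn1a was higher, 0 of the 10 were lower and 0 higher past 2-fold, beside 6.91% and 6.25% of all genes tested. By smaller changes Trp53inp1 was higher at 2 h (log2 0.85, edgeR adjusted p = 2.62e-08), and Aen and Sesn2 were lower (log2 -0.64 and -0.78). Of these genes, which were named by their 24 h change, Trp53inp1 thus moved with Cdkn1a at 2 h. Aen, Sesn2 and Eda2r moved with it at 24 h, and Trp53inp1 and Btg2 the other way. In the rest of the list, Mdm2 (log2 0.21, edgeR adjusted p = 8.17e-05) and Zmat3 (log2 0.16, edgeR adjusted p = 0.004) were also higher at 2 h. Bbc3 was lower at 2 h (log2 -0.92, edgeR adjusted p = 1.7e-06). At 24 h Mdm2 was higher (log2 0.84, edgeR adjusted p = 9.24e-15), while Ccng1, Bax and Zmat3 were lower by less than 2-fold.

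Of the other INK4 genes, Cdkn2a had 13.2 ± 1.6 CPM at 0 h and 14.3 ± 0.27 at 24 h (log2 0.11, edgeR adjusted p = 0.254), and Cdkn2b 11 ± 0.45 and 7.60 ± 0.16 (log2 -0.54, edgeR adjusted p = 2.02e-06). Cdkn1c, the remaining Cip/Kip gene, had 0 counts in every library.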
